A study of Mus musculus with 38 samples.

Results

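Retinoic acid (RA) drives mouse embryonic stem cells (mESCs) into ectoderm-like and XEN-like cells, the latter named for their resemblance to extraembryonic endoderm cell lines. The comparison described here set a long-term culture of the XEN-like cells against the cells at the moment of sorting, and asks which genes differed after weeks of growth without RA. It used 3 of the 38 samples of the series, chosen by their labels among its 25 bulk libraries. The 2 libraries of sorted XEN-like cells are labelled as replicates 1 and 2, and the authors describe biological replicates for these cells. They came from E14 mESCs taken from 2i/LIF medium into N2B27 with RA for 96 h. The cells were then sorted by flow cytometry for PDGFRA on the surface and for absence of CD24. The single culture library came from sorted XEN-like cells put back into dishes coated with poly-D-lysine plus laminin, in N2B27 with 20 ng/ml EGF and 10 ng/ml FGF2 and kept for 3 weeks, during which floating aggregates were carried on in uncoated dishes without dissociation. The labels name no transgene or mutation in any group, all groups came from the same parental line, and no second sort of the culture before RNA extraction is described. Culture time, attachment, medium, removal of RA and the sort itself all differ between the groups and cannot be told apart. An ectoderm-like culture at passage 5 in the same medium (1 library) and its sorted starting population (2 libraries) served as the parallel contrast.

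As background, extraembryonic endoderm forms the yolk sac: parietal endoderm lays down a thick basement membrane of laminin and type IV collagen, and visceral endoderm takes up and secretes nutrients and carrier proteins. Both express GATA4, GATA6 and SOX17. In the adult stomach, the surface of the glands is lined by mucous (foveolar) cells, which secrete the mucin MUC5AC, the trefoil factor TFF1 and the gastrokines, small secreted proteins that shape and stabilise the mucus layer. Levels below are counts of unique molecular identifiers (UMIs, one per captured mRNA 3' end) or CPM, that count scaled to a library total of 1000000. In these bulk libraries a lower level can mean fewer cells of a type or less RNA per cell, and these cannot be told apart.

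Stomach mucous transcripts led the culture library. Tff1, which encodes a trefoil peptide of gastric mucus, held 82016 of its 1449710 UMIs, or 5.66% (95% Wilson interval 5.62 to 5.70%), and Gkn1, encoding gastrokine 1, held 78390, or 5.41% (5.37 to 5.44%). They were the 2 most abundant genes of the library, together 11.1% of it, ahead of the ferritin gene Ftl1 with 17727 UMIs. The sorted libraries held 78 and 25 UMIs of Tff1 and 75 and 19 of Gkn1. Psca, a small surface-anchored protein of gastric epithelium, had 7171 UMIs in the culture against 6 and 1, and Muc5ac had 2352 UMIs in the culture against 1 and 0. Each of these 4 genes lay far above both sorted libraries. On the log2 scale the fitted change was 10.77 ± 0.49 (SE) for Tff1, 10.87 ± 0.55 (SE) for Gkn1, 11.05 ± 0.51 (SE) for Psca and 11.98 ± 0.56 (SE) for Muc5ac, with adjusted p of 2.50e-06, 2.96e-06, 2.50e-06 and 2.50e-06 (edgeR's quasi-likelihood test), where 12.4% of all tested genes passed as higher.

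The low counts in the sorted libraries are not read here as a level of these genes. The 22 bulk libraries other than these 3, undifferentiated mESCs included, held 21 to 88 UMIs of Tff1, 21 to 82 of Gkn1, 1 to 8 of Psca and 0 to 6 of Muc5ac. The sorted XEN-like libraries lay inside those ranges, except that library 2, with 19 UMIs of Gkn1, lay just below. The 2 mESC libraries had 68 and 54 UMIs of Tff1. In the single-cell data at 96 h of RA, none of 137 cells with more than 2000 UMIs had a UMI of Tff1, Gkn1, Gkn2, Psca or Muc5ac (0 of 726759 UMIs for each). These cells were not split by lineage and mix ectoderm-like with XEN-like cells, unlike the sorted libraries. A count of 0 allows a share of up to 2.19% of cells with a UMI and a pooled level of up to 4.13 CPM. This limit holds for the mix and not for its XEN-like cells alone. It lies below the 39.6 and 22.8 CPM of Tff1 in the sorted libraries. Of the same list, Cldn18 also had 0 UMIs in these cells, whereas Dpcr1 had 7 UMIs in 7 of the 137 cells (9.63 CPM pooled) although the sorted bulk libraries held 0 and 1. In the same mixed cells Sparc was found in 135 of 137. Whether reads passed between libraries of the pool was not tested, and ratios against counts this low are given only as measured.

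The culture held 1449710 UMIs over 13184 genes, and the sorted libraries held 1969024 and 1097157 UMIs over 12976 and 11702 genes, within the range of all 25 bulk libraries (1063830 to 2459483 UMIs). The 10 most abundant genes took 16.7% of the culture against 7.15% and 8.25% of the sorted libraries. Across 10627 genes, Pearson's r of log2 CPM was 0.949 between the sorted libraries and 0.741 and 0.740 between each of them and the culture. These values are across genes, which are not independent replicates. Intervals on counts cover counting error only.

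**Figure D1:**
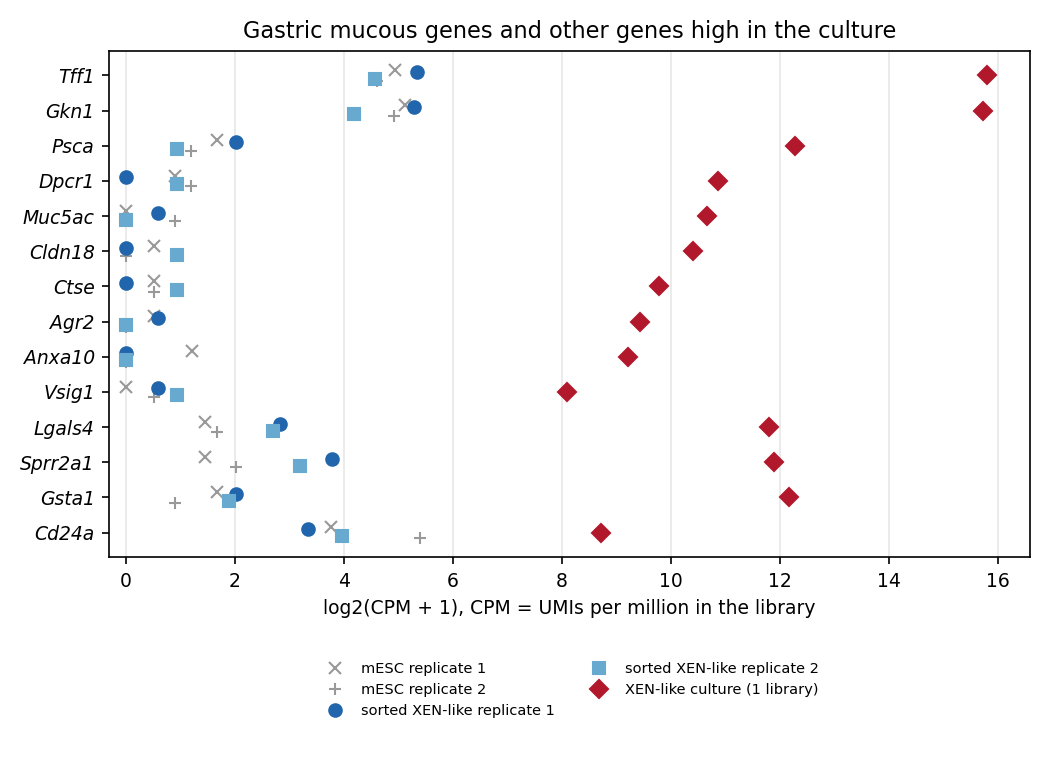
Level of 14 genes in the XEN-like culture (1 library, red), the 2 sorted XEN-like libraries (blue) and the 2 mESC libraries (grey), as log2(CPM + 1), 1 row per gene and 1 point per library. The culture lies to the right of all 4 other libraries in every row, and the sorted XEN-like points lie among or near the mESC points for the first 10, gastric, genes.

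The gastric genes sit in small gene clusters whose members were not equally high (coordinates from GENCODE vM21, build GRCm38, which is the mm10 build the authors used). Tff1 (chr17:31161395-31165277, minus strand) has Tff2 and Tff3 as neighbours. Tff3 (chr17:31125306-31129646, minus strand), a trefoil factor of goblet cells, had 440 UMIs in the culture against 0 and 0, at least 310.2-fold higher against a floor of 3 counts over the sorted libraries. Tff2 (chr17:31141049-31144282, minus strand), made by gland mucous neck cells, had 215 UMIs in the culture against 0 and 0, at least 152-fold higher. Tff1 thus exceeded both neighbours in UMIs within the culture library, although counts of 3' ends were not compared for capture efficiency between genes. Gkn1 (chr6:87345650-87350942, minus strand) lies beside Gkn2 and Gkn3. Gkn3 had 20 against 1 and 0 UMIs. The culture value of Gkn2 is damaged in the deposited table and was not used, while the other 24 libraries held 31 to 111 UMIs of it. Among the mucins of one cluster, Muc5ac (chr7:141788972-141819231, plus strand) had 2352 UMIs, Muc2 (chr7:141690340-141754693, plus strand), the intestinal gel-forming mucin, had 45, and Muc6 (chr7:141633456-141655319, minus strand), the mucin of gastric glands, had 1.

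Promoter sequence is shown for the 4 members of the gastric mucous list with the most UMIs in the culture among those with a RefSeq entry (build GRCm38.p6), so that their letters can be set beside the endoderm factors described further on. Each line holds the 250 bases before the transcript start, read along the gene's strand, and capitals mark AGATAA or its reverse complement TTATCT (the core bound by GATA factors, both strands) and TATAAA (the TATA box, gene strand). Of 18 listed genes, 12 had at least 1 entry, 13 entries in all. No entry was found for Tff1, Psca, Muc5ac, Dpcr1, Ctse or Fut2.
Gkn1, chr6:87350916-87351165, minus strand: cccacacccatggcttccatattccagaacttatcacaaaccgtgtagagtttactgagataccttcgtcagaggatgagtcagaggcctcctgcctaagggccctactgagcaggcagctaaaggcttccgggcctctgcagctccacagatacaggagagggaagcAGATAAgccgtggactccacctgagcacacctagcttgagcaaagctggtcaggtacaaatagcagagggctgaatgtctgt
Cldn18, chr9:99717268-99717517, minus strand: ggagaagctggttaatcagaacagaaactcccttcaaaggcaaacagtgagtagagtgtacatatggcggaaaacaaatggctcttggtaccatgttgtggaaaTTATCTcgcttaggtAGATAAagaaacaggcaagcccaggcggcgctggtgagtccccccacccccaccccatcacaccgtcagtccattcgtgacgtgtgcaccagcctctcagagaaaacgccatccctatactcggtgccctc
Cldn18, chr9:99710064-99710313, minus strand: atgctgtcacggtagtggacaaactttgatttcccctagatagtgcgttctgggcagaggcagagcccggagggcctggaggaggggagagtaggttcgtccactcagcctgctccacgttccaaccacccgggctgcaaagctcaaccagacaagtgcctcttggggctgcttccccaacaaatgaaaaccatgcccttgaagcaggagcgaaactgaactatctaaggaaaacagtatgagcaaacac
Agr2, chr12:35992675-35992924, plus strand: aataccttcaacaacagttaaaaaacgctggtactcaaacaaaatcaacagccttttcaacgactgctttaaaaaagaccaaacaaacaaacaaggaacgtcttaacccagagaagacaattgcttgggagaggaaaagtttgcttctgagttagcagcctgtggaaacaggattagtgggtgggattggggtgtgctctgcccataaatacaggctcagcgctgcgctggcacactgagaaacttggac
Anxa10, chr8:62123194-62123443, minus strand: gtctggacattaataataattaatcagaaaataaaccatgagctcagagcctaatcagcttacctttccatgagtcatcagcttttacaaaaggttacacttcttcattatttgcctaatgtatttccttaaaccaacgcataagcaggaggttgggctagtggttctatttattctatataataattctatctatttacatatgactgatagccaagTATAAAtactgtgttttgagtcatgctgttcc
AGATAA was present in 4 of the 13 promoters (30.8%) against 9.99% of 32851 promoters of the same length, TATAAA in 4 of 13 (30.8%) against 7.59%, and TGTTTAC (the core bound by forkhead factors, both strands) in 0 of 13 against 3.17%. Within the printed windows no match overlaps another. A match is a description of letters, and the absence of one says only that these letters are not in the window. Cldn18 has 2 starts, known as background for a lung and a stomach form, and a 3' count cannot tell which was used. Its 2 AGATAA or TTATCT matches lie in the entry at 99717268-99717517, and the entry at 99710064-99710313 has 0. Which entry belongs to the stomach form is not given here. The 4 promoters with AGATAA or TTATCT were those of Gkn1, Gkn2, Krt20 and that 1 entry of Cldn18. The culture value of Gkn2 could not be read, and Krt20 had 19 UMIs in the culture. No test compared these shares with those of all promoters.

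Across all genes, 10627 were tested for a difference between the culture and the sorted cells, and 1315 (12.4%) were higher and 692 (6.51%) lower at an adjusted p under 0.05 by edgeR's quasi-likelihood test. The median log2 fold change over all tested genes was 0.04. Of the higher genes, 674 exceeded a log2 fold change of 3 and 320 exceeded 5, while 132 and 47 of the lower genes exceeded these sizes downward. The culture has no replicate, so the test assumes that it varies like the sorted populations, from which 2 residual degrees of freedom come. This estimate was fragile: leaving out either sorted ectoderm-like library, neither of which enters the contrast, left 0 genes at the threshold (smallest adjusted p 0.0748 and 0.0640), with 1741 higher and 1210 lower genes, or 1777 and 1234, at an unadjusted p under 0.05. DESeq2 called 476 higher and 378 lower on all 6 libraries, and 389 and 332, or 388 and 330, with 1 ectoderm-like library left out. Without sorted XEN-like library 2 edgeR called 885 and 351, and without library 1 it called 1149 and 554. A rule that uses no spread at all, at least 4-fold against each sorted library with each counting interval on one side of 1, held for 1026 genes upward (9.66%) and 293 downward (2.76%) of 10625, of which 909 and 261 were also called by the test. Every one of the 2007 called genes kept its direction in each fit that gave it a value. All these fits used the same culture library and at least 1 of the same sorted XEN-like libraries. The kept direction is therefore no independent evidence. Calls below are those of the fit on 6 libraries, and "passed" refers to it. Counts of list members below are to be read against the 12.4% of all tested genes called higher and the 6.51% called lower.

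**Figure D2:**
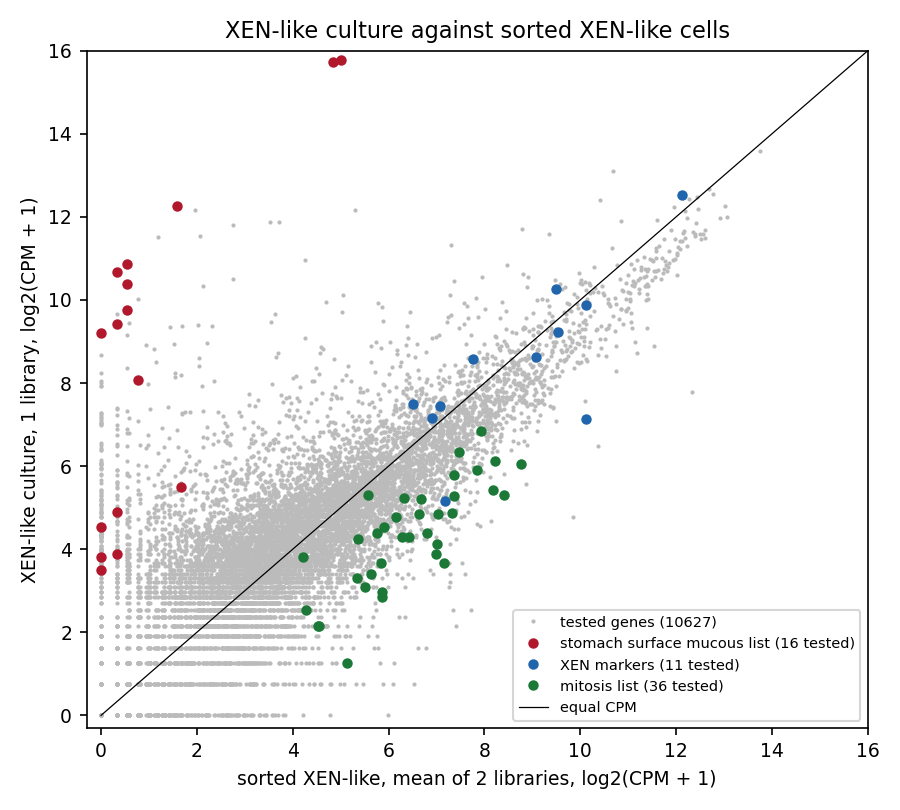
Level of each tested gene in the XEN-like culture (vertical) against the mean of the 2 sorted XEN-like libraries (horizontal), both as log2(CPM + 1), with the line of equal level. The stomach surface mucous list (red) lies far above the line, the 11 XEN markers (blue) lie on both sides of it, and the mitosis list (green) lies below it.

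Stomach surface mucous genes rose as a group, in a list chosen with these results known and so no independent evidence of its direction. Of its 18 genes, Gkn2 could not be read, Fut2 (11 against 0 and 0 UMIs) was below the filter on low counts, and the other 16 were all higher, with a median log2 fold change of 10.76, or 9.99 with the 4 genes at 0 in the sorted libraries set to their lower bound. Such genes pass the filter only through the culture, so the count of those that passed is fixed in part by the filter. Dpcr1, a mucin-like gene, had 2705 UMIs in the culture against 0 and 1. Cldn18, a tight junction claudin whose stomach form marks gastric epithelium, had 1951 UMIs in the culture against 0 and 1. Ctse, the aspartic protease cathepsin E of surface mucous cells, had 1265 UMIs in the culture against 0 and 1.

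Some members had no UMI in either sorted library and others rose from very few. Anxa10, an annexin of gastric epithelium, had 857 UMIs in the culture against 0 and 0 and was at least 604-fold higher. Sult1c2, a sulfotransferase, was seen at 32 against 0 and 0 UMIs, and Krt20, a keratin of mature gastric and intestinal surface cells, at 19 against 0 and 0 UMIs. The calpains of surface cells were low but present, with 15 against 0 and 0 UMIs for Capn8 and 42 against 1 and 0 UMIs for Capn9. Vsig1, an adhesion protein of gastric epithelium, had 392 UMIs in the culture against 1 and 1, a ratio of 415-fold (114 to 3435), where the range is the exact 95% counting interval. Muc1, a membrane mucin, had 64 UMIs in the culture against 5 and 2, a smaller ratio of 19.3-fold (8.86 to 50.0). The list summed to 122989 CPM in the culture and to 85.8 and 46.5 CPM in the sorted libraries. DESeq2 called 10 of the 16, with adjusted p = 0.0524 for Muc1 and 0.0564 for Capn9 and none given for the other 4, and leaving out sorted library 1 or 2 kept 14 each time; without library 1 Gkn3 and Capn8 had adjusted p = 0.0656 and 0.124, and without library 2 0.0764 and 0.0804.

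Genes of the deeper gastric glands were present at lower levels or not at all. Of 17 listed, 5 were tested and called higher, but 4 of these had at most 1 UMI in the sorted libraries and entered the test through the culture, so this count was largely fixed by the filter. With no filter on low counts 6 of 14 were higher, with a median log2 fold change of 2.81. Atp4a and Atp4b, the subunits of the acid pump of parietal cells, had 32 against 0 and 0 UMIs and 102 against 0 and 0 UMIs, respectively. Pgc, pepsinogen C of chief cells, had 28 against 1 and 0 UMIs. Pga5, a pepsinogen, was already expressed before culture, with 1216 UMIs in the culture against 138 and 112, a ratio of 10.3-fold (8.97 to 11.8), a rise that did not pass under DESeq2 (adjusted p = 0.111). A count of 0 in the culture was found for 5 listed genes, among them Gif and Lipf of chief cells, Gast of G cells and Aqp5. The surface list was therefore far more abundant in CPM (122989) than the gland list (1113), and no test compared the lists. Tff1 (56574 CPM) and Gkn1 (54073 CPM) held most of the surface sum. Pga5, which is also in the parietal endoderm list, held most of the gland sum.

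Intestinal genes were also found, at most 1 UMI of the factors that specify intestine being present. Of 26 listed, 11 were tested and 10 were higher, some of which entered the test only through the culture. With no filter on low counts 10 of 21 were higher. Lgals4, a galectin of gut epithelium, had 5158 UMIs in the culture against 12 and 6, a ratio of 606-fold (383 to 1023), and Lgals2 had 1181 UMIs in the culture against 18 and 15. Fabp2, the intestinal fatty acid binding protein, had 477 UMIs in the culture against 0 and 1, and Phgr1 had 205 against 2 and 0 UMIs. Spink4, a secreted peptide of goblet cells, had 133 against 1 and 0 UMIs, and Muc2 had 45 against 0 and 0 UMIs, at least 31.7-fold higher. Of those factors, Cdx1 was at 0 in all 3 libraries and Cdx2 had 1 against 2 and 1 UMIs. The intestinal stem cell genes Olfm4 and Lgr5 had 0 and 1 UMIs in the culture. Isx, an intestinal factor, was detected already in sorted cells (43 against 32 and 16 UMIs) and did not pass.

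Secretory and mucus-building genes accompanied the mucins. Of 29 listed, 21 were tested, and 12 were higher, 1 lower and 8 did not pass, with a median log2 fold change of 3.17. Some of the higher genes entered the test only through the culture, so this count was fixed in part by the filter. With no filter on low counts 13 of 26 were higher and 1 lower, with a median log2 fold change of 2.86. Agr2, a disulfide isomerase needed for mucin folding, had 997 UMIs in the culture against 1 and 0. Gcnt3, which builds branched mucin O-glycans, had 528 UMIs in the culture against 3 and 1, a ratio of 279-fold (108 to 1028). Galnt6, which starts O-glycans, had 98 UMIs in the culture against 0 and 0 and was at least 69.1-fold higher. Rab27a and Sytl2, which guide secretory granules to the membrane, had 196 against 1 and 1 UMIs and 94 against 0 and 0 UMIs, respectively. B3gnt5, a glycolipid-extending transferase, was the member that fell, from 74.7 and 24.6 CPM to 3.45 CPM. Under DESeq2, 8 members were higher and 1 lower.

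Many simple epithelial genes rose from a measurable start. Of 35 listed, 26 were tested, and 15 were higher, 1 lower and 10 did not pass, with a median log2 fold change of 2.62. E-cadherin (Cdh1), the adhesion protein of epithelial junctions, measured 192 CPM in the culture against 8.13 and 9.11 CPM (log2 fold change 4.45 ± 0.40 (SE), adjusted p = 8.59e-05). Krt19, a keratin of simple gut epithelium, measured 832 CPM in the culture against 22.3 and 41.0 CPM (log2 fold change 4.70 ± 0.58 (SE), adjusted p = 6.18e-04). Keratins Krt8 and Krt18, already present in sorted cells, rose less: Krt8 had 1106 CPM in the culture against 165 and 142 CPM, and Krt18 had 541 CPM in the culture against 100.0 and 138 CPM. The desmosomal genes Dsp and Jup had 179 against 17 and 2 UMIs and 294 against 29 and 15 UMIs, respectively, and both passed. Epcam, a common epithelial surface protein, had 51 against 27 and 4 UMIs, which did not pass (adjusted p = 0.0545). Cldn6, a claudin of embryonic epithelia, fell by 4.35 ± 1.09 (SE) on the log2 scale, from 154 and 231 CPM to 9.66 CPM. Without sorted library 2 neither Krt18 nor Cldn6 passed (adjusted p = 0.0636 and 0.0516).

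The transcript of one sorting antigen rose. Cd24a, which encodes the antigen that the sorted cells had been selected to lack, measured 421 CPM in the culture against 9.14 and 14.6 CPM, a ratio of 37.9-fold (26.9 to 55.3) (log2 fold change 5.15 ± 0.46 (SE), adjusted p = 8.59e-05). The sorted ectoderm-like libraries, selected for CD24, held 268 and 388 CPM, so the culture lay above both, while the ectoderm-like culture held 18.7 CPM. Pdgfra, the receptor used to select XEN-like cells, measured 34.5 CPM in the culture against 144 and 143 CPM. It was lower than in each sorted library, 4.16-fold (3.10 to 5.69) by CPM, but did not pass (log2 fold change -2.09 ± 0.90 (SE), adjusted p = 0.133); it passed with no filter on low counts and with the 3 XEN-like libraries alone, among other alternatives. The gate set the starting level of both genes, and their surface proteins were not measured after culture in the data used here.

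Most XEN markers lay in or near the range of the sorted libraries. None of the 11 passed in either direction by edgeR, against 12.4% and 6.51% of all genes. At an unadjusted p under 0.05, 0 were higher and 2 lower. DESeq2 called 0 as well, with unadjusted counts not compared by list, and other fits called 0 to 2 higher and 0 to 2 lower. A p that misses the threshold does not show equal levels, and the sorted replicates themselves differed: Col4a1, a chain of type IV collagen, measured 1219 CPM in the culture against 1208 and 236 CPM, so the replicates were 5.12-fold apart and the culture was close to the higher one. Sparc, a matrix protein secreted with the basement membrane, measured 5888 CPM in the culture against 5454 and 3413 CPM and was among the 10 most abundant genes of the culture. The laminin chains Lama1, Lamb1 and Lamc1 had 602, 937 and 397 CPM in the culture, each between its 2 sorted values. Of the transcription factors, Gata4 measured 181 CPM in the culture against 102 and 78.4 CPM, Gata6 142 CPM in the culture against 148 and 91.1 CPM and Sox17 174 CPM in the culture against 149.8 and 118 CPM. Gata4 and Sox17 were above both sorted libraries, by 1.93-fold and 1.25-fold in pooled counts, and Gata6 lay within their range.

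**Figure D3:**
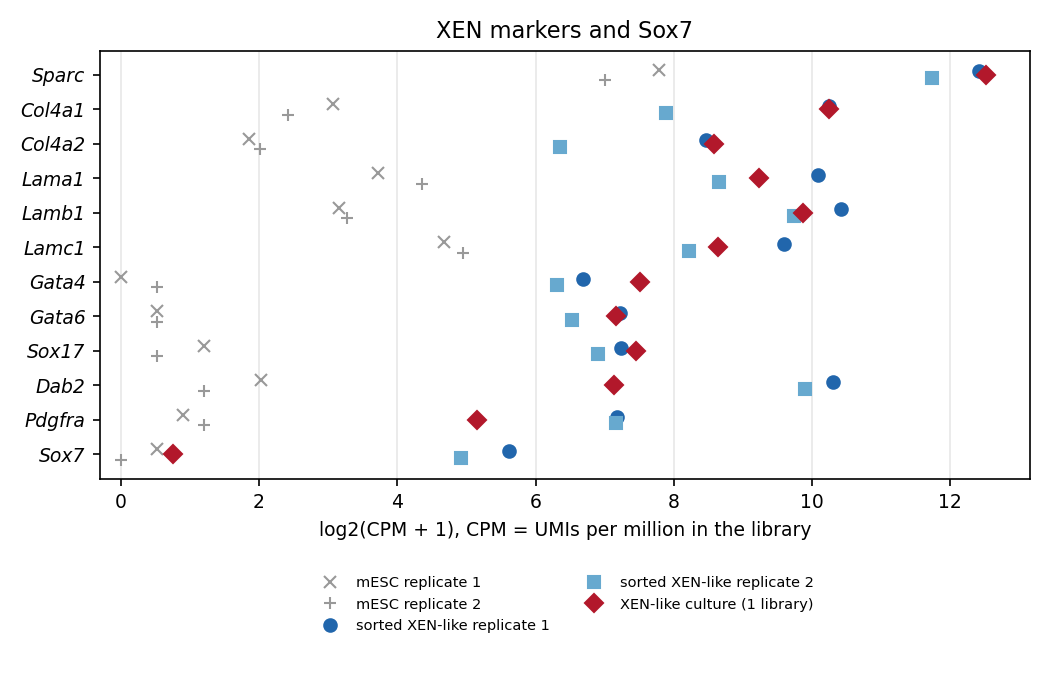
Level of the 11 XEN markers and Sox7 in the culture (red), the 2 sorted XEN-like libraries (blue) and the 2 mESC libraries (grey), as log2(CPM + 1). For the matrix genes and for Gata4, Gata6 and Sox17 the culture point lies within or close to the pair of sorted points and right of the mESC points, whereas for Dab2, Pdgfra and Sox7 it lies left of both sorted points.

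A subset of extraembryonic endoderm genes was low in the culture. Dab2, an adaptor for endocytosis, had 203 UMIs in the culture against 2486 and 1042, 8.22-fold (7.13 to 9.51) lower by CPM, and missed the threshold (log2 fold change -3.01 ± 0.99 (SE), adjusted p = 0.0597), which it passed with RLE size factors, with no filter on low counts and with the mESC libraries, among other alternatives. Lrp2 and Cubn, the receptors with which Dab2 acts in uptake by visceral endoderm, had 1 against 188 and 42 UMIs and 14 against 463 and 82 UMIs, and both fell (log2 fold change -4.01 ± 0.96 (SE), adjusted p = 0.0179 for Cubn, or 0.207 under DESeq2). Sox7, a parietal endoderm factor, had 1 UMIs in the culture against 95 and 32 and fell, as did Pth1r, the parathyroid hormone receptor of parietal endoderm (38 against 373 and 188 UMIs), and Plat, tissue plasminogen activator (42 against 196 and 134 UMIs). The coagulation starter F3, tissue factor, had 34 against 212 and 381 UMIs, with the sorted libraries at 108 and 347 CPM. Without sorted library 2, F3 and Pth1r did not pass (adjusted p = 0.114 and 0.0581), nor did they under DESeq2 (0.179 and 0.241). Of 25 parietal endoderm genes, 2 were higher (8%), 6 lower (24%) and 17 did not pass, where 12.4% and 6.51% of all tested genes were higher and lower. A higher one was Ctsl, the lysosomal protease cathepsin L, at 8842 CPM in the culture against 1467 and 1823 CPM (log2 fold change 2.38 ± 0.54 (SE), adjusted p = 0.0140; adjusted p = 0.0548 without sorted library 2 and 0.0989 under DESeq2).

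Part of the visceral endoderm list was higher. Of 32 listed, 25 were tested, and 10 were higher, 2 lower and 13 did not pass, where 12.4% of all tested genes were higher and 6.51% lower. Among its secreted carriers that rose, Ttr, transthyretin, measured 715 CPM in the culture against 25.9 and 90.2 CPM, Apoa1 had 130 against 2 and 1 UMIs, Afp, alpha-fetoprotein, had 118 against 6 and 2 UMIs, and Apoc2 had 209 against 0 and 0 UMIs, at least 147-fold higher. Other carriers of the list did not pass: Apom had 1 against 32 and 8 UMIs (adjusted p = 0.0618), Apoe 20 against 45 and 6 UMIs (adjusted p = 0.908) and Apoa2 13 against 1 and 1 UMIs (adjusted p = 0.0987). Ihh, a hedgehog ligand of visceral endoderm and gut, had 193 against 28 and 11 UMIs, a ratio of 10.5-fold (7.39 to 15.2). Against these stood Lrp2 and Cubn, and, without passing, Rbp4 (1 against 44 and 21 UMIs, adjusted p = 0.148) and Cited1 (100 against 659 and 586 UMIs, adjusted p = 0.0951). Under DESeq2 only 3 members were higher and 1 lower, and Ttr (adjusted p = 0.150) and Ihh (adjusted p = 0.522) were not among them. Of 17 liver, pancreas and lung genes 1, Cela1, was tested (70 against 1 and 0 UMIs), and 13 were at 0 in the culture.

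Among endoderm transcription factors, 7 of 22 tested were higher and 1, Sox7, was lower. The higher count was 2 under DESeq2 and 3 without sorted library 2. Foxa2, a pioneer factor of definitive and visceral endoderm, measured 109.7 CPM in the culture against 32.5 and 21.9 CPM (log2 fold change 1.96 ± 0.48 (SE), adjusted p = 0.0192). Hnf4a, a factor of gut and visceral endoderm, had 52 against 6 and 11 UMIs. Klf4, a factor of gut surface epithelium that is also expressed in mESCs, measured 342 CPM in the culture against 42.7 and 26.4 CPM (log2 fold change 3.26 ± 0.38 (SE), adjusted p = 4.00e-04). Sox21 had 96 against 6 and 2 UMIs. Sox2 and Barx1, factors of stomach development, had 2 and 2 UMIs in the culture, Pdx1 and Nkx6-3 had 0, and none of these showed a level above the sorted libraries. Calls for Foxa2 and Hnf4a were lost in DESeq2 or without a sorted library: Hnf4a had adjusted p = 0.107 without library 1, and Foxa2 had 0.0753 without library 2. Under DESeq2, Foxa2 and Hnf4a had 0.0977 and 0.415.

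**Figure D4:**
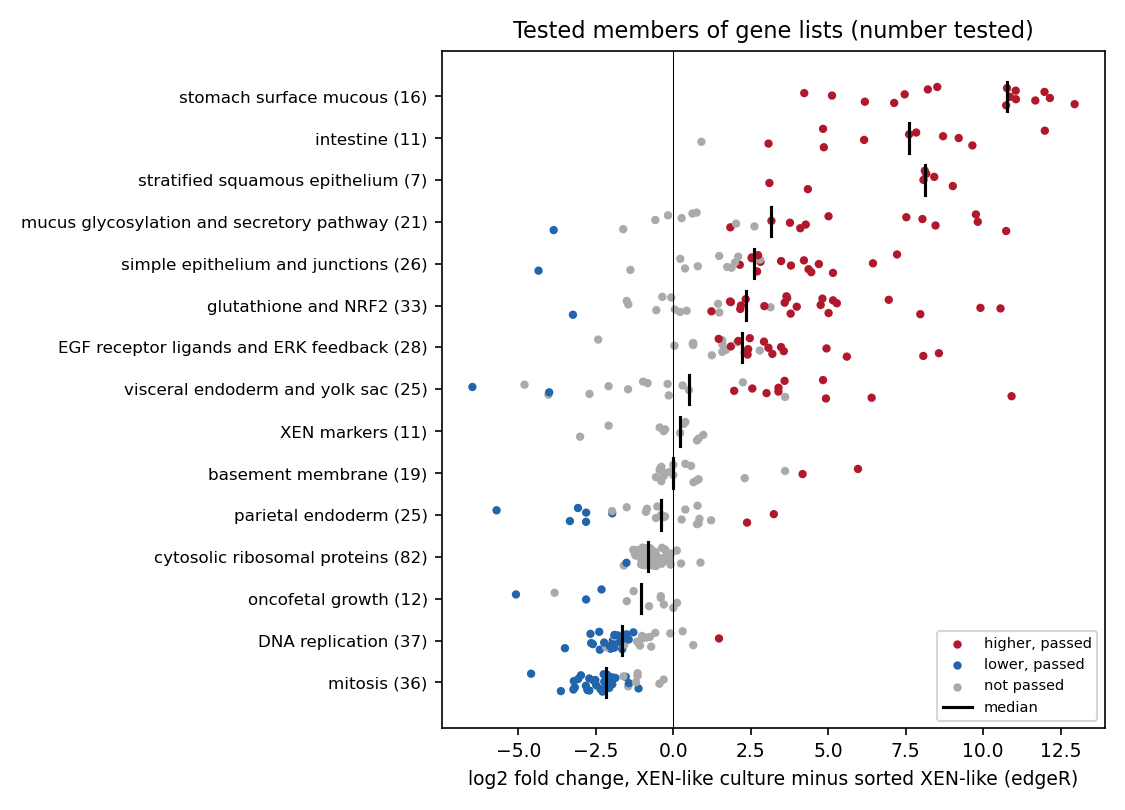
Log2 fold change of culture over sorted XEN-like cells (horizontal, edgeR) for every tested member of 15 gene lists, 1 point per gene, coloured by direction if it passed, with the list's median as a black bar and the number tested in brackets. Tested members of the stomach, intestinal and squamous lists lie to the right (medians 10.76, 7.61 and 8.12, or 10.71, 4.81 and 3.34 with no filter on low counts), XEN markers around 0 (median 0.22) and mitosis to the left (median -2.19).

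A few small proline-rich proteins, precursors of the cornified envelope of squamous epithelium, were high, while 9 other Sprr genes of the list were at 0 in the culture. Sprr2a1 had 5472 UMIs in the culture against 25 and 9 and Sprr2a2 had 5418 UMIs in the culture against 35 and 7, but these genes are near-identical copies on chromosome 3 and reads may have been shared between them. Sprr2b had 709 against 2 and 3 UMIs, Ivl (involucrin) 56 against 0 and 0 UMIs and Sprr1a 29 against 0 and 0 UMIs. The defining genes of squamous cells were not found: Krt5, Trp63, Krt13, Krt4, Krt6a and Dsg3 had 0 UMIs in the culture, Krt14 had 2, and 22 of 33 list genes in the table were at 0. Of 34 listed genes, 7 were tested and called higher, several of which entered the test only through the culture. With no filter on low counts 7 of 15 were higher, with a median log2 fold change of 3.34.

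Detoxifying enzymes formed another large gain. Of 34 glutathione and NRF2 genes, 33 were tested, and 21 were higher, 1 lower and 11 did not pass, with a median log2 fold change of 2.34. Gsta1, a glutathione transferase, had 6651 UMIs in the culture against 6 and 3, and its close copies Gm3776 and Gsta2, next to it on chromosome 9, whose reads may be shared with it, had 4239 against 5 and 0 UMIs and 1012 against 2 and 0 UMIs. Gsta4, which clears lipid peroxidation products, measured 2556 CPM in the culture against 137 and 177 CPM, and Gsto1 measured 997 CPM in the culture against 27.9 and 21.9 CPM (log2 fold change 5.28 ± 0.38 (SE), adjusted p = 2.43e-05). Nqo1 and Cbr3, quinone and carbonyl reductases, had 149 against 8 and 3 UMIs and 228 against 12 and 3 UMIs. Akr1b8, an aldo-keto reductase, fell (20 against 303 and 113 UMIs), a call that DESeq2 did not make (adjusted p = 0.203). Some further enzymes were among the 15 genes named for the largest rises: Sult1d1, a sulfotransferase, had 595 against 0 and 0 UMIs; Ces2a, a carboxylesterase, 352 against 0 and 0 UMIs; Cyp3a13 350 against 0 and 0 UMIs; and Cyp2c65 224 against 0 and 0 UMIs. They were at least 419-fold, at least 248-fold, at least 247-fold and at least 158-fold higher, respectively. Cyp3a13 did not pass under DESeq2 (adjusted p = 0.287).

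Genes of the mucosal surface and of interferon response rose in part, and this was not limited to XEN-like cells. Median log2 fold changes were 1.18 for mucosal defence and 1.81 for interferon and antigen presentation. The latter was 1.15 with the 5 genes at 0 in the sorted libraries set to their lower bound. For the same lists, the parallel culture of ectoderm-like cells had medians of 1.72 and 2.65 over its own sorted cells. The XEN-like change was the lower of the pair for 7 of 15 and 14 of 23 tested members. Of 33 mucosal defence genes, 15 were tested, and 7 were higher, 1 lower and 7 did not pass. Ccl20, a chemokine of gut epithelium, had 372 UMIs in the culture against 0 and 0, at least 262-fold higher. Lypd8, which protects the colonic surface from bacteria, had 828 UMIs in the culture against 0 and 0, at least 584-fold higher. S100a6, a calcium-binding protein, measured 1980 CPM in the culture against 20.8 and 15.5 CPM (log2 fold change 6.72 ± 0.36 (SE), adjusted p = 3.94e-06), and the annexins Anxa1 and Anxa3 had 213 against 10 and 5 UMIs and 610 against 25 and 36 UMIs. The cytokine gene Il18 had 136 against 18 and 7 UMIs. Of 23 tested interferon and antigen presentation genes, 8 were higher, 0 lower and 15 did not pass. Oasl1 had 125 against 0 and 0 UMIs, and H2-K1, a class I antigen-presenting chain, 133 CPM against 39.6 and 15.5 CPM. In this list 18 genes had a positive and 4 a negative log2 fold change. Ifit1, Ifit2, Ifit3 and Isg15 had only 3, 0, 2 and 1 UMIs in the culture and did not pass. Ifitm3 (38 against 123 and 48 UMIs) and H2-T23 (218 against 633 and 243 UMIs) had negative changes and did not pass. Clu, the chaperone clusterin, measured 4576 CPM in the culture against 56.4 and 21.0 CPM, a ratio of 105-fold (88.2 to 125). AW112010, an interferon-induced transcript, had 223 against 0 and 0 UMIs.

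The medium contained EGF and FGF2, whose effect on these genes was not tested. Ligands and feedback targets of the EGF receptor pathway were higher in part. Of 37 listed, 28 were tested, and 16 were higher, 0 lower and 12 did not pass (median log2 fold change 2.20). Btc, betacellulin, an EGF receptor ligand, had 159 against 0 and 1 UMIs, Hbegf, another, had 127 against 17 and 7 UMIs, and Areg, amphiregulin, had 28 against 1 and 0 UMIs. The immediate early genes Fos and Egr1 had 177 against 9 and 3 UMIs and 41 against 0 and 0 UMIs. Errfi1, a feedback inhibitor of the receptor, had 52 against 6 and 3 UMIs (log2 fold change 3.57 ± 0.56 (SE), adjusted p = 0.00223). Under DESeq2, 7 members were higher, and Areg and Egr1 did not pass (adjusted p = 0.0796 and 0.109). The ectoderm-like culture grew in the same medium, where the list had a median log2 fold change of 1.64 and 11 members higher. RA had been withdrawn, and the effect of its removal was not tested. Of 21 tested retinoid genes, 6 were higher (28.6%), 2 lower (9.52%) and 13 did not pass. Cyp26a1, which degrades RA, fell from 270.2 and 148 to 4.83 CPM (log2 fold change -5.44 ± 0.60 (SE), adjusted p = 3.12e-04, edgeR), and Stra6, a retinol uptake receptor, had 10 against 115 and 62 UMIs. The higher members included Adh7, a retinol dehydrogenase, at 380 against 0 and 0 UMIs, Aldh1a1, a retinaldehyde dehydrogenase, at 139 against 14 and 2 UMIs, and Dhrs3, a retinaldehyde reductase, at 218 against 35 and 10 UMIs. Rdh11, of the retinol dehydrogenase family, had 23 against 30 and 20 UMIs and did not pass (adjusted p = 0.933). DESeq2 called 1 member higher and 2 lower. DESeq2 called neither Aldh1a1 nor Dhrs3 (adjusted p = 0.406 and 0.267), and without sorted library 2 Dhrs3 had 0.106. Id1, Id2 and Id3, targets of BMP signalling, had 192 against 12 and 11 UMIs, 364 against 74 and 87 UMIs and 179 against 35 and 15 UMIs, and all 3 passed.

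Genes of cell division fell together. Of 36 mitosis genes, 28 were lower, 0 were higher and 8 did not pass, against 6.51% of all genes lower, and all 36 had a negative log2 fold change (median -2.19). Ccnb1, cyclin B1, which drives entry into mitosis, measured 38.6 CPM in the culture against 329 and 354 CPM (log2 fold change -3.18 ± 0.40 (SE), adjusted p = 6.60e-04). Aurka, a spindle kinase, measured 11.7 CPM in the culture against 129 and 155 CPM (log2 fold change -3.63 ± 0.46 (SE), adjusted p = 7.22e-04). Cdk1 and Birc5 (survivin) had 61 against 513 and 349 UMIs and 94 against 856 and 472 UMIs. The list summed to 1017 CPM in the culture and to 4859 and 3660 CPM in the sorted libraries. Mki67, the common proliferation marker, measured 38.6 CPM in the culture against 84.3 and 8.20 CPM and did not pass, its sorted replicates being 10.3-fold apart. Its direction turned without sorted library 1 (log2 fold change 2.12). DESeq2 called 21 mitosis genes lower, and leaving out sorted library 1 or 2 left 24 each time.

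Of 37 DNA replication genes, 21 were lower and 1 higher (Msh6, a mismatch repair gene), with a median log2 fold change of -1.65; without sorted library 2, 11 were lower and 0 higher. Cdc6, which licenses replication origins, measured 10.3 CPM in the culture against 117 and 113 CPM, and Rrm2, which makes deoxynucleotides, measured 33.1 CPM in the culture against 191 and 221 CPM. Pcna, the polymerase clamp, measured 131 CPM in the culture against 224 and 276 CPM and did not pass (adjusted p = 0.0934). Among G1 regulators, Ccnd2, cyclin D2, rose to 916 CPM from 36.1 and 78.4 CPM, Myc rose (72 against 7 and 8 UMIs), and Mycn, its paralog of early embryonic cells, fell (2 against 115 and 58 UMIs). The cell cycle inhibitor Cdkn1a (p21) measured 246 CPM in the culture against 43.2 and 73.8 CPM (log2 fold change 2.04 ± 0.45 (SE), adjusted p = 0.0134). Large losses in CPM were also seen for the chromatin genes H2afz (477 against 2698 and 3221 CPM), Hmgb2 (422 against 2642 and 2042 CPM) and the nucleolar gene Npm1 (639 against 2851 and 2517 CPM).

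**Figure D5:**
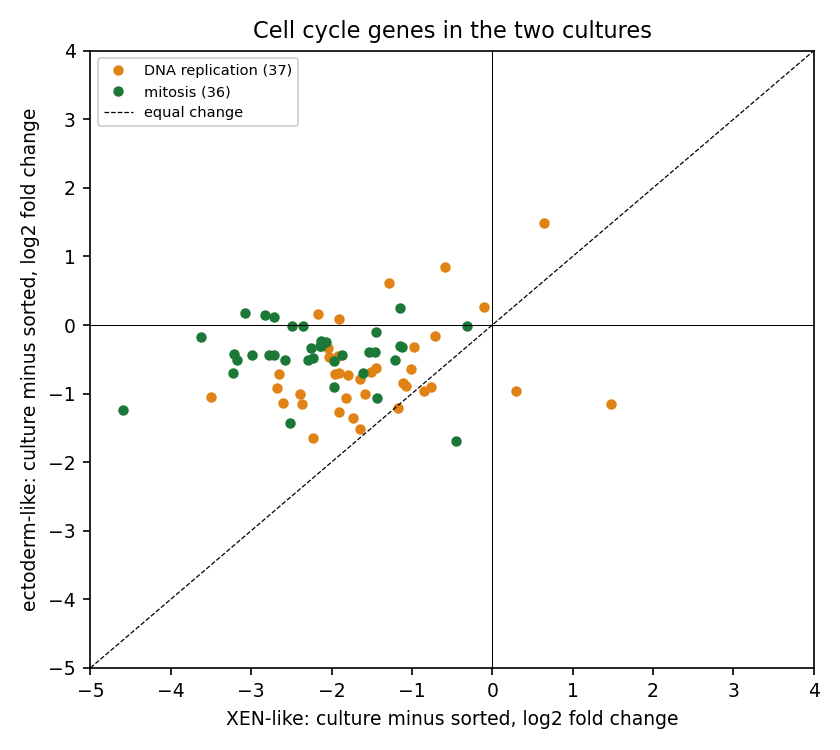
Log2 fold change of culture over sorted cells in the XEN-like lineage (horizontal) and the ectoderm-like lineage (vertical) for 37 DNA replication (orange) and 36 mitosis (green) genes, 1 point per gene, with the dashed line of equal change. For 35 of the 36 mitosis genes and 32 of the 37 replication genes the XEN-like change is the lower of the pair, so most points lie above the line.

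Cytosolic ribosomal protein genes were lower, though few passed: their sum was 164028 CPM in the culture and 248125 and 281587 CPM in the sorted libraries, the median log2 fold change of 82 tested genes was -0.81, 79 of them were negative and 47 lower at an unadjusted p under 0.05, and 1 gene, Rpl22, passed as lower (adjusted p = 0.121 without sorted library 2). This count depended on the fit, with 8 lower under RLE size factors, 14 under DESeq2, 31 with no filter on low counts, 70 with the replicate block, 46 when library totals alone set the scale and 34 with the mESC libraries. The 78 tested oxidative phosphorylation genes had a median of 0.16, with 1 higher and 0 lower.

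Several embryonic genes fell. Of 12 tested oncofetal genes, 0 were higher, 3 lower (25%) and 9 did not pass, where 6.51% of all tested genes were lower. Of 8 tested pluripotency genes, 2 were higher (25%), 1 lower (12.5%) and 5 did not pass, where 12.4% of all tested genes were higher. The higher ones were Klf4 (496 against 84 and 29 UMIs) and Tfcp2l1 (106 against 11 and 11 UMIs). Dppa5a, an RNA-binding protein of pluripotent cells, measured 220.0 CPM in the culture against 5947 and 4351 CPM (log2 fold change -4.57 ± 0.48 (SE), adjusted p = 2.23e-04, edgeR). The mESC libraries had a higher share, with 25131 of 2285987 and 36412 of 2297379 UMIs. The sorted XEN-like libraries held 11710 of 1969024 and 4774 of 1097157 UMIs. Lin28a, which keeps cells immature by blocking let-7 processing, had 7 against 357 and 157 UMIs (log2 fold change -5.08 ± 0.50 (SE), adjusted p = 1.71e-04). Sall4, an embryonic zinc finger factor, had 11 against 380 and 122 UMIs, Dnmt3l, a cofactor of DNA methylation, 3 against 255 and 72 UMIs, and Igf2bp1, an RNA-binding protein of fetal tissue, 42 against 438 and 195 UMIs. Trim71, an embryonic RNA-binding ubiquitin ligase, was at 0 against 60 and 25 UMIs. Pou5f1 and Nanog, core pluripotency factors, had 18 against 119 and 18 UMIs and 34 against 189 and 58 UMIs and did not pass (adjusted p = 0.137 and 0.0685). Dkk1, a secreted Wnt inhibitor, had 5 against 354 and 174 UMIs and fell, Slc38a4, an imprinted amino acid transporter, had 3 against 208 and 123 UMIs, and Plac1, a placental gene, had 1 against 127 and 57 UMIs. Among genes with 50 or more UMIs in each sorted library, Fam198b had the lowest fitted fold change, at 0 against 104 and 79 UMIs, at least 28.8-fold lower against a floor of 3 counts in the culture.

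Among further groups, the counts are read against the 12.4% of all tested genes called higher and the 6.51% called lower. Of 31 tested cathepsin and lysosome genes, 10 were higher and 1 lower, or 3 and 0 under DESeq2 and 4 and 0 without sorted library 2. Of 18 tested BMP and TGF-beta genes, 5 were higher and 0 lower, and DESeq2 called 4 higher. Of 7 Notch genes, 2 were higher and 0 lower, and DESeq2 called 0. Of 18 G1 cyclins and CDK inhibitors, 6 were higher and 1 lower, or 3 and 1 under DESeq2. Of 19 basement membrane genes, 2 were higher (10.5%) and 0 lower, with 0 and 0 under DESeq2 and 4 and 0 without sorted library 1. Of 18 collagen folding genes, 1 was higher (5.56%) and 0 lower, and with the replicate block 1 was higher and 3 lower. Of 33 ER folding genes, 1 was higher and 3 lower (9.09%), with 13 lower at an unadjusted p under 0.05, 7 with no filter on low counts, 12 with the replicate block and 1 with either sorted XEN-like library left out. Of 27 hypoxia and glycolysis genes, 4 were higher and 4 lower, or 0 and 3 under DESeq2. Of 21 p53 targets, 3 were higher and 2 lower, or 2 and 0 under DESeq2. Of 10 Wnt targets, 1 was higher and 1 lower, or 0 and 1 under DESeq2. Of 20 Hox genes, 1 was higher and 0 lower, and DESeq2 called 0. None of 23 cholesterol synthesis genes passed by edgeR's test or under DESeq2, with 0 higher and 0 lower at an unadjusted p under 0.05.

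Markers of other cell types were mostly at low levels. Of 17 blood and macrophage genes, 12 were at 0 in the culture, Ptprc, Lyz2, Tyrobp and Cd52 among them, and the list summed to 20.0 CPM against 23.9 and 7.29 CPM in the sorted libraries; Hba-a1 had 15 against 0 and 0 UMIs, reads that its copy Hba-a2 may share. Of 12 endothelial genes, 7 were at 0, including Pecam1 and Kdr, whereas Tek (51 against 0 and 1 UMIs), Cdh5 (80 against 9 and 2 UMIs) and Vwf (15 against 0 and 0 UMIs) passed as higher. Neither Hba-a1 nor Vwf passed without sorted library 1 (adjusted p = 0.0873 and 0.101) or without library 2 (0.0829 and 0.0576). The endothelial list summed to 149 CPM against 34.5 and 32.8 CPM. Mesenchymal genes summed to 517 CPM against 761 and 774 CPM, with Col1a1 and Col1a2 at 1 UMI each in the culture and Lgals1, a galectin, lower (279 against 1087 and 609 UMIs, adjusted p = 0.111 without sorted library 2). Neuroectoderm genes summed to 1552 CPM against 611 and 323 CPM, of which Fabp5, a fatty acid binding protein, and Cd24a held most (1400 against 111 and 56 UMIs for Fabp5), while Sox1 and Pax6 had 0 and 1 UMIs. Of 5 tested neuron genes, 0 were higher and 1 lower, and of 3 trophoblast genes, 0 were higher and 1 lower. The share of any minor population in these values was not tested.

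The parallel culture of ectoderm-like cells was used to compare the culture change between the lineages. The culture change differed between lineages for 339 genes that changed more positively in XEN-like cells (3.19%) and 189 that changed more negatively (1.78%) of 10627. All 4 stomach markers were among the former: the difference of changes was 10.53 ± 0.72 (SE) for Tff1, 10.16 ± 0.80 for Gkn1, 9.97 ± 1.21 for Psca and 11.72 ± 1.60 for Muc5ac on the log2 scale (adjusted p 4.58e-04, 4.58e-04, 0.00226 and 0.00425, edgeR). The ectoderm-like culture held 64, 80, 6 and 2 UMIs of these genes, within the range of the mESC and other libraries. Such low counts are not read here as a level. The 4 genes were also chosen with their counts in the XEN-like culture known. Their passing is therefore no independent evidence of a difference between lineages. Of the mitosis list, 11 of 36 members fell further in the XEN-like lineage and 0 the other way, with a median change of -0.41 in ectoderm-like cells. The cultures also differ in passage and aggregate handling, which cannot be told apart from lineage.

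Some genes changed the same way in both cultures. Of 1315 genes higher in the XEN-like culture, 179 (13.6%) were also higher in the ectoderm-like culture, which is 24.4% of the 735 called there (6.92% of tested genes). Downward, 70 genes were shared, 10.1% of 692 and 21.4% of 327 (3.08% of tested genes). In opposite directions, 48 genes were higher in the XEN-like and lower in the ectoderm-like culture, 14.7% of the 327 (12.4% of tested genes were higher in the XEN-like culture). The reverse held for 14 genes, 1.90% of the 735 (6.51% of tested genes were lower in the XEN-like culture). The contrasts share no library, but they come from the same fit and share its filter and each gene's estimated spread. The calls in the 2 cultures are therefore not independent. S100a6 and Mt1, metallothionein, rose in both, and Mt1 measured 3374 CPM in the culture against 543 and 334 CPM. Tm4sf1, a membrane protein (4282 against 9 and 2 UMIs in the XEN-like lineage), Clu and Gsto1 also rose in both but rose further in the XEN-like lineage, by 3.72, 4.56 and 2.83 on the log2 scale (interaction adjusted p = 0.0138, 0.00599 and 0.0208, edgeR). Lin28a, Mycn, Cyp26a1, Sall4 and Lrp2 fell in both and did not pass the interaction test. Dppa5a fell in both and fell further in the XEN-like lineage (interaction log2 -2.96, adjusted p = 0.0157). S100a6 reached 6391 UMIs in the ectoderm-like culture against 50 and 38 in its sorted cells.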

How the data were processed

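Bulk RNA was profiled by a 3'-end method with UMIs, and the counts of UMIs per gene and library are as deposited by the authors, who aligned reads with BWA 0.7.4 to mouse RefSeq transcripts of build mm10, the mitochondrial genome and spike-ins. How Cuffnorm and TopHat, also named in the submitters' processing notes, entered is not given in the sources used here. Of 23481 genes, Rn45s and Gkn2 were left out of totals and tests, and the 27 gene names damaged into dates are not named. The 6 libraries of the sorted and cultured XEN-like and ectoderm-like groups were fitted by group with edgeR 4.0.16 (R 4.3.3): filterByExpr, TMM normalisation, quasi-likelihood F test, Benjamini-Hochberg adjustment over all tested genes, threshold 0.05. The culture adds no residual degrees of freedom, since it is 1 library, and p-values measure the spread between the labelled replicates, which may be partly technical. Ratios are of CPM with exact conditional 95% intervals, and a gene at 0 in both sorted libraries is set against 3 counts over both. DESeq2 1.42.0 was an alternative. The procedure was tested on simulated data: of genes changed 2-fold, 4-fold and 8-fold in this comparison, it recovered 10.4%, 55.2% and 81.8%. It made 0 false calls among 10557 genes, the changed ones included. Only genes above a minimum level in sorted cells were changed. The simulated culture was given the spread of the fitted libraries, so the simulation cannot test whether the real culture varies like the sorted populations. The sorted replicates were counted as 2 samples by their labels, and their counts differed by more than sampling noise (chi-square 56302 over 10625 genes), so they are not the same counts deposited again.

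The members, the 40 gene lists and the rules were chosen with earlier results of these data known. Genes are named if they are among the 15 that changed most per direction (minimum 50 UMIs) or the 10 whose CPM differed most per direction, or if they belong to the 4 stomach markers, the sorting genes, all XEN markers and up to 6 members of each list. Further genes were added after their values were seen, among them Agr2, Vsig1, Muc1, Krt8, Krt18, Epcam, Lgals2, Gsta4, Cdk1, Birc5, Mki67, Pcna, Pou5f1, Nanog, Tm4sf1, Mt1, Il18 and the genes given only for a count at or near 0. Alternatives were other size factors, no count filter, DESeq2, added mESC libraries, the 3 XEN-like libraries alone, each replicate left out, and a replicate block.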

Additional observations from a re-analysis of the deposited data

Results flagged for a closer look

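The change from sorted to cultured cells differed between the XEN-like and ectoderm-like lineages for 528 genes by the interaction test of edgeR. Among them, the difference of changes on the log2 scale was 10.53 for Tff1, 10.16 for Gkn1, 9.97 for Psca and 11.72 for Muc5ac. These genes were chosen with their counts in the XEN-like culture known. Of the 36 mitosis genes, 11 differed, each with the lower change in the XEN-like lineage. Each culture is 1 library, and passage, handling and lineage cannot be told apart.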

How the results depend on the processing

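In each alternative that gave them a value, the 2007 called genes kept their direction, but the number past the threshold varied. All alternatives used the same culture library, so the kept direction is no independent evidence. DESeq2 called 476 genes higher and 378 lower, which moved the share of higher calls from 65.5% to 55.7%. With no filter on low counts 1058 genes were lower, and 1278 differed between lineages; with RLE size factors 837 differed. The fold rule left 293 lower. Leaving out 1 library at a time gave 0 to 1149 genes higher, 0 to 554 lower and 0 to 804 differing between lineages, where the 0 came from leaving out either sorted ectoderm-like library in edgeR. DESeq2 with sorted ectoderm-like replicate 1 left out called 389 higher, 332 lower and 226 differing, and with replicate 2 left out 388, 330 and 247, alternatives chosen after seeing the data. Without sorted XEN-like replicate 2 351 genes were lower, and without replicate 1 the median log2 fold change over all tested genes was 0.15 in place of 0.04. Leaving out a sorted XEN-like library turned the log2 fold change of 5 of the 228 named genes with a fit, none of which had passed: it ranged from -0.81 to 0.47 for Lama1, from -0.50 to 0.022 for Lamb1, from -0.92 to 0.31 for Lamc1, from -0.011 to 0.53 for Gata6 and from -1.08 to 2.12 for Mki67. The sorted groups share replicate numbers only. With the replicate block, 1794 genes were higher, 1389 lower and 1354 differed between lineages, and Mki67 stood at 0.30; the deviations of same-numbered libraries had a Pearson's r of 0.255 across genes. Depth limits genes with a few UMIs, whose ratios have wide intervals.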
